A study of Homo sapiens with 2 samples.

Results

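The 44 genes described here encode the TGF-beta, activin and bone morphogenetic protein (BMP) signalling pathway: secreted ligands, their receptors, the proteins that hold or block the ligands outside the cell, the SMAD proteins that carry the signal, and the ID genes that it regulates. They were chosen by gene symbol, with earlier results of these data known. All 44 were found among the 58884 genes of the deposited table. RNA was measured in TPC-1, an established line of human papillary thyroid carcinoma whose known driver is the CCDC6-RET fusion kinase. Cells received a control siRNA in one group and in the other an siRNA directed at XPR1, the phosphate exporter of human cells; both groups are the same line and each is 1 library, with about 15780000 and 15150000 counted reads as worked back from the TPM values. No label states the siRNA sequences, their dose or when the cells were harvested, nor whether the libraries came from more than 1 culture. Levels are in TPM, a measure corrected for gene length and library size, so that levels of different genes in a library can be set side by side. Where a pair of values is given, the control library comes first and the XPR1-siRNA library second.

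Ligands of this family bind a pair of transmembrane kinases, a type II receptor that activates a type I receptor, which then phosphorylates receptor-regulated SMADs. TGF-beta and activin act through SMAD2 and SMAD3, and BMPs through SMAD1, SMAD5 and SMAD9; either kind joins SMAD4 and enters the nucleus. In thyroid follicular cells, TGF-beta is known to restrain growth and differentiated function, and in carcinomas it is known for its part in invasion and matrix production.

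Because each condition is a single library, the conditions could not be tested, no difference has a replicate check, and "higher" and "lower" describe these 2 libraries. The 95% Clopper-Pearson intervals of a fold come from read numbers worked back from TPM and gene length, and cover counting error only. Differences are on the log2(TPM + 1) scale, XPR1 siRNA minus control, and a gene averaging 1 TPM or more over the libraries was called higher or lower where it was at least 1.5-fold apart on that scale. The targeted transcript, XPR1, stood at 39.2 TPM with control siRNA and 5.31 TPM with XPR1 siRNA, or 13.5% of control (11.6% to 15.7%). Of 12 markers of thyroid and simple epithelium, 5 had a mean of at least 1 TPM, among them the thyroid transcription factor PAX8 at 588 and 409 TPM, and the 12 summed to 761 and 534 TPM. NKX2-1, TSHR and EPCAM were listed at 0 in both libraries. Endothelial markers summed to 2.75 and 1.70 TPM, and leukocyte markers to 0.457 and 0.598 TPM. In bulk RNA, fewer cells with a transcript and less of it per cell cannot be told apart.

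Of the 44 genes, 39 had a mean of at least 1 TPM. Among these 39, 10 were at least 1.5-fold higher after XPR1 siRNA and 8 at least 1.5-fold lower, which is 25.6% and 20.5%. Of all 16319 genes compared, 21.7% were higher and 16.6% lower by the same measure, and of the 11698 protein-coding genes 20.7% and 11.1%. All 10 higher genes had a counting interval that excluded equality, as did 7 of the 8 lower ones. Among protein-coding genes it excluded equality for 2392 of the 2424 higher and 1271 of the 1294 lower. By a 2-fold threshold 4 of the 39 genes were higher and 4 lower, with 8.75% and 4.57% of protein-coding genes past it. The members' higher share is close to these backgrounds. Their lower share, 8 genes of 39, is above that of protein-coding genes, and whether it differs was not tested. Because the 44 genes were chosen with earlier results known, these shares are a description and no independent evidence. The median difference of the 39 genes was 0.11, beside 0.05 for all genes and 0.10 for protein-coding genes. The 44 levels summed to 1864 and 1906 TPM.

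**Figure D1:**
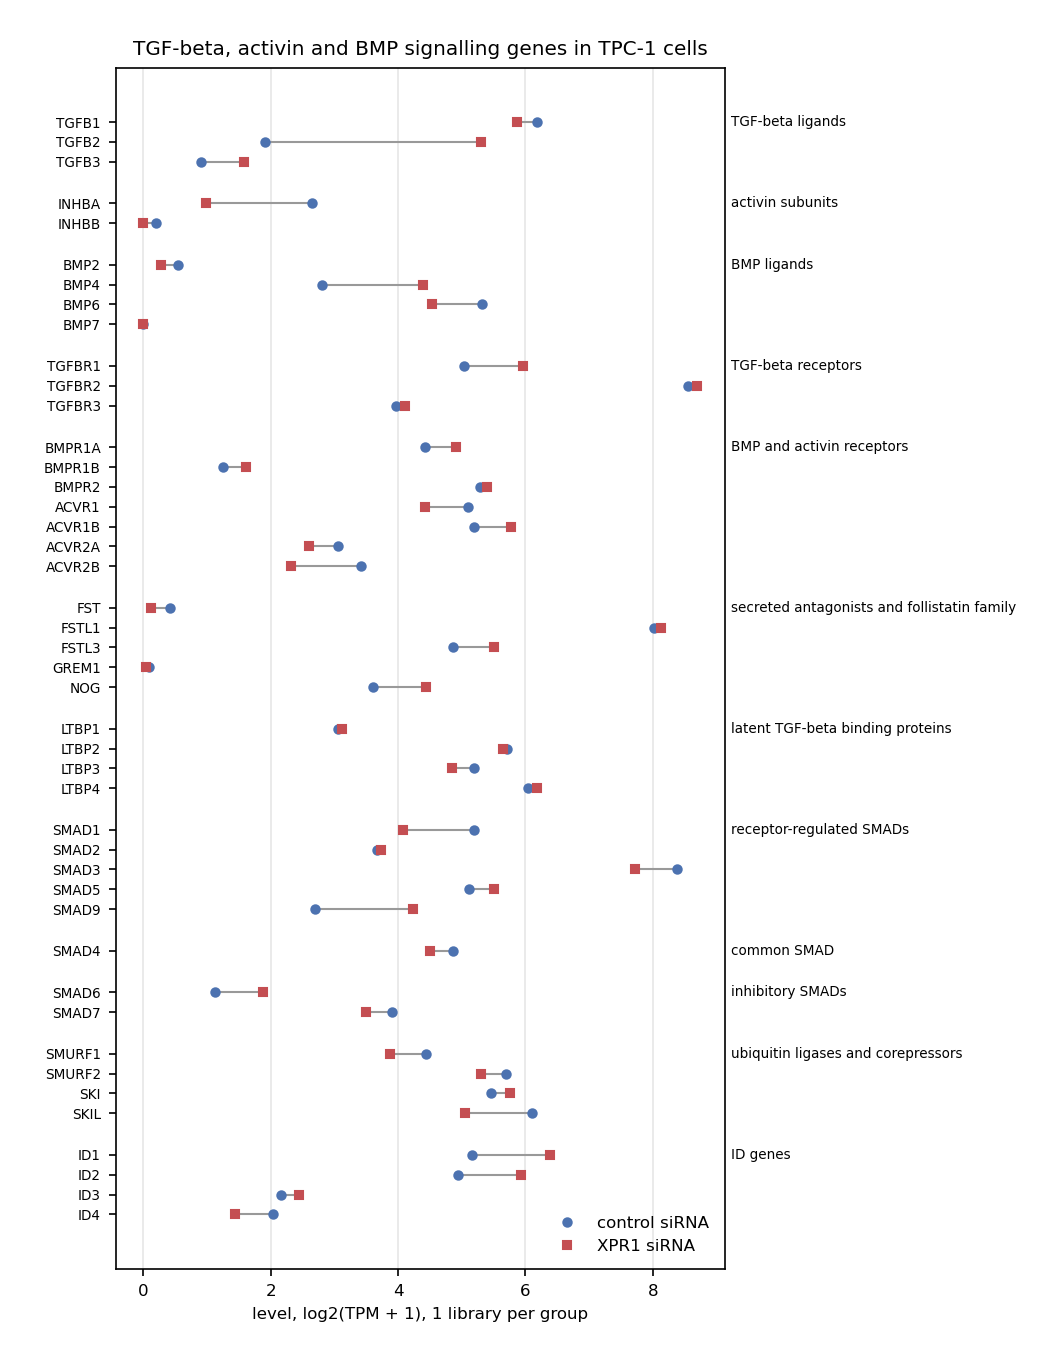
Level of each of the 44 genes as log2(TPM + 1) on the x axis, grouped by role, with circles for the control library and squares for the XPR1-siRNA library (1 library each). The longest bar is that of TGFB2, from 2.78 to 38.6 TPM, and TGFBR2, SMAD3 and FSTL1 are the most abundant members in both libraries.

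Of the members at least 2-fold apart, 6 have a single promoter window. The 4 in which a searched motif was found are shown, while the windows of ACVR2B and SMAD9, at 74% and 78.4% G and C, held none of the motifs. Each sequence is the 250 bases before the RefSeq start on GRCh38.p14, on the gene's own strand, 5′ to 3′. Capitals mark matches on either strand to the letters of the SMAD core CAGAC, the BMP-SMAD element GGCGCC, the AP-1 site TGANTCA, the cyclic AMP response element TGACGTCA or the TATA box TATAAA. TGFB2 lies at chr1:218345086-218345335 on the plus strand, upstream of the gene's start at 218346235 in GENCODE 29. ID1 lies at chr20:31605039-31605288 on the plus strand, INHBA at chr7:41703091-41703340 on the minus strand, within the GENCODE 29 bounds of the gene, and SKIL at chr3:170357465-170357714 on the plus strand.
TGFB2: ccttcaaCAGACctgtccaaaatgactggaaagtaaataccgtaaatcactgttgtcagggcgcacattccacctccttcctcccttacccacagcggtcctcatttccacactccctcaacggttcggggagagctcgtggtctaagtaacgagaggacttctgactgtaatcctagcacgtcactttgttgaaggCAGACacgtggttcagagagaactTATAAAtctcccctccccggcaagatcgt
ID1: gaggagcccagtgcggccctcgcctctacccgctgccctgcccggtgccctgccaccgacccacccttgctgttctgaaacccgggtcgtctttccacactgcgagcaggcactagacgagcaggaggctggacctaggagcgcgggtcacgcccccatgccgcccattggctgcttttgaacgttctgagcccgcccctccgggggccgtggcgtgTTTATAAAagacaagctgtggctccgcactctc
INHBA: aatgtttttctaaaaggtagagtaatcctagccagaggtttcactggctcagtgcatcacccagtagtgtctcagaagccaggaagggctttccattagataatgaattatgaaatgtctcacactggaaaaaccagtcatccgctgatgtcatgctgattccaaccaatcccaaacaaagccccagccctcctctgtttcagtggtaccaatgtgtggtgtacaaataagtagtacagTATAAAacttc
SKIL: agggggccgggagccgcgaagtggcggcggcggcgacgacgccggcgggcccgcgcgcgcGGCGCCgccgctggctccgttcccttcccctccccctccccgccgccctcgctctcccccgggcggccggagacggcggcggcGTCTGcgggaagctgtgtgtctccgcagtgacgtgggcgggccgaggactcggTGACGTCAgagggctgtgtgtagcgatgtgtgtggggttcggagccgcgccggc

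The TGFB2 window held 2 matches to CAGAC and 1 to TATAAA, at 50.4% G and C. The ID1 window, at 66% G and C, held TATAAA once on each strand, in an overlapping stretch. In the INHBA window, at 42.8% G and C, TATAAA was the only match. The SKIL window, at 78.4% G and C, held no match to the TATA box and 1 match each to the SMAD core, the BMP-SMAD element and the cyclic AMP response element. TATAAA occurred in 10.7% of all 35116 promoter windows and in 12.5% of the 72 windows that 40 of the 44 genes have. CAGAC occurred in 38.0% of all windows and 37.5% of the members' windows, and GGCGCC in 16.4% and 25%. TGANTCA occurred in 6.57% and 5.56%, and TGACGTCA in 1.65% and 2.78%. The members' windows had a median of 65.2% G and C, beside 58% for all windows. A match is a string of letters and not a measured binding site.

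Among the TGF-beta ligands, TGFB1 was the main transcript in both libraries, by a far smaller margin over TGFB2 after XPR1 siRNA. TGFB2 (ENSG00000092969, chromosome 1, 218346235 to 218444619, plus strand) was 2.78 and 38.6 TPM. It was the largest difference of the 44 genes, at 3.39 on the log2 scale and 13.9-fold (10.7 to 18.5). TGFB1 (chromosome 19, 41301587 to 41353911, minus strand) was 71.4 and 57.5 TPM, within 1.5-fold. TGFB3 was 0.868 and 2.00 TPM, from 18 and 40 reads, a difference of 0.69 and 2.31-fold (1.29 to 4.28). It passed the level filter through the XPR1-siRNA library, and with a pseudocount of 5 its difference was 0.26, within 1.5-fold.

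The make-up of the ligand transcripts differed with these levels. TGFB1 held 95.1% of the summed TGF-beta ligand transcripts in control and 58.6% after XPR1 siRNA, and TGFB2 held 3.70% and 39.3%. Within the control library TGFB1 was 25.7 times TGFB2 (19.9 to 34.2), and within the XPR1-siRNA library 1.49 times (1.35 to 1.65). The sum of the 3 ligands was 75.1 and 98.1 TPM. Part of the TGFB1 exons, 6.64%, is shared with HNRNPUL1 on the other strand, which was 154.5 and 181.3 TPM, and the library kit does not mark strand. TGFB2-OT1, which shares 26.6% of the TGFB2 exons on the same strand, was listed at 0 in both libraries. How reads of the shared bases were assigned was not examined. The 0 therefore does not show that the TGFB2 level was unaffected by the overlap.

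Among activin and BMP ligands, BMP4 was higher, and INHBA and BMP6 were lower. INHBA (ENSG00000122641, chromosome 7, 41667168 to 41705834, minus strand), whose product pairs with itself to form activin A, was 5.29 and 0.981 TPM. It had the most negative difference of the 39 genes, at -1.67 on the log2 scale and 5.39-fold lower (3.71 to 8.07). INHBA passed the level filter through the control library. Its difference was -2.32 with a pseudocount of 0.1 and -0.78 with a pseudocount of 5. INHBB, the other activin subunit among the 44 genes, had 2 reads in control and none after XPR1 siRNA. BMP4 (ENSG00000125378, chromosome 14, 53949736 to 53958761, minus strand) was 5.97 and 19.9 TPM, 3.33-fold higher (2.56 to 4.34). BMP6, which is known for its part in iron balance, was 38.8 and 22.1 TPM, 1.76-fold lower (1.5 to 2.06).

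BMP6 was 6.5 times BMP4 in the control library (5.08 to 8.33), and after XPR1 siRNA the pair were not separated by counting error, at a ratio of 1.11 (0.926 to 1.33). Their sum with BMP2 was nearly level, at 45.3 and 42.2 TPM. BMP2 rested on 7 and 3 reads, and BMP7 was listed at 0 in both libraries, where 3 reads would be 0.131 and 0.136 TPM.

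**Figure D2:**
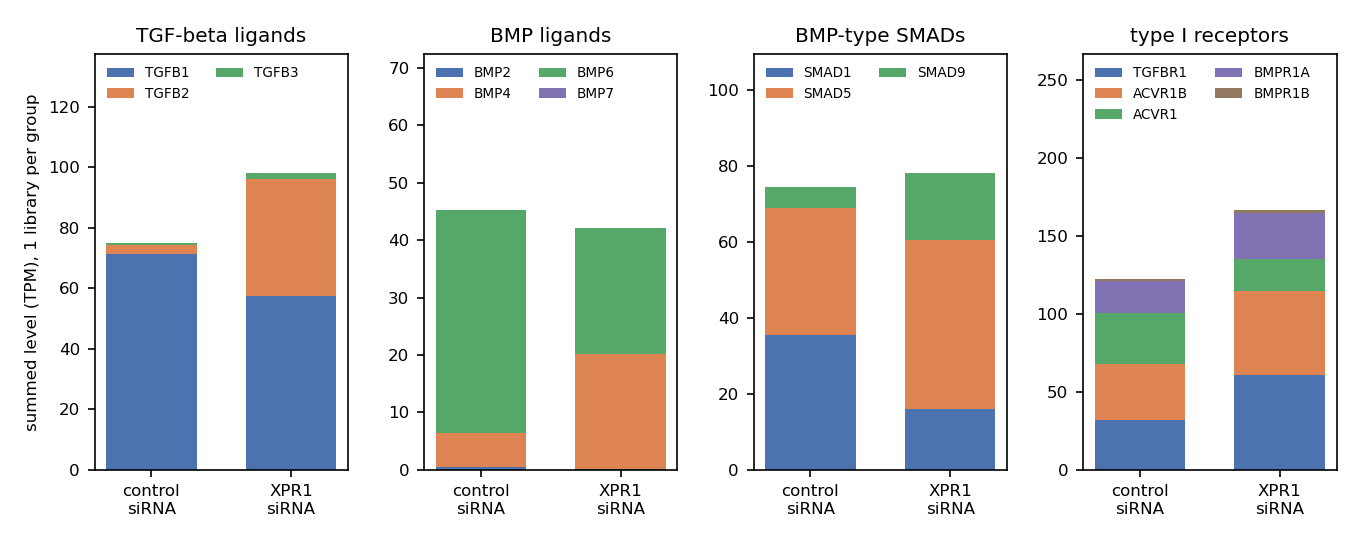
Summed TPM on the y axis of 4 sets of genes that share a role, stacked by gene, for the control and the XPR1-siRNA library (1 library each, no error bars; the y axes differ). TGFB2, BMP4 and SMAD9 take larger parts of their stacks after XPR1 siRNA, while the BMP ligand and BMP-type SMAD totals stay at 45.3 and 42.2 TPM and at 74.5 and 78.3 TPM.

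Of the receptors, TGFBR2, the type II receptor of TGF-beta, stood far above the rest in both libraries, at 374 and 412 TPM (within 1.5-fold). TGFBR1, the type I receptor that pairs with it, was 31.9 and 61.0 TPM, a difference of 0.92 and 1.91-fold (1.77 to 2.08). TGFBR2 was therefore 11.7 times TGFBR1 in control (11.0 to 12.6) and 6.75 times after XPR1 siRNA (6.41 to 7.12). TGFBR3, or betaglycan, a co-receptor that presents TGFB2 to the kinases, was 14.6 and 16.3 TPM, and its counting interval included equality.

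Among the 7 receptors of BMPs and activin, 2 were lower and none higher, where 11.1% and 20.7% of protein-coding genes were lower and higher. Whether so small a count differs from those shares was not tested. ACVR2B, a type II receptor of activin, was 9.69 and 4.0 TPM, 2.42-fold lower (2.09 to 2.81). ACVR1, a type I receptor for BMPs, was 33.2 and 20.5 TPM, 1.62-fold lower (1.41 to 1.86). With a pseudocount of 5 the ACVR1 difference of -0.67 became -0.58, just inside the threshold. ACVR1B, the type I receptor of activin, was 35.7 and 53.9 TPM, a difference of 0.58 that lay just short of the threshold of 0.585.

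ACVR1B was above ACVR1 beyond counting error only after XPR1 siRNA. In control ACVR1B and ACVR1 were not separated by counting error, at a ratio of 1.07 (0.965 to 1.2), and after XPR1 siRNA the ratio was 2.63 (2.33 to 2.98). BMPR1A was 20.5 and 29.2 TPM, BMPR2 38.1 and 41.3 TPM, ACVR2A 7.35 and 5.08 TPM and BMPR1B 1.39 and 2.07 TPM, all within 1.5-fold. Part of the ACVR2A exons, 6.35%, is shared with ORC4 on the other strand, at 13.2 and 12.6 TPM. The 5 type I receptors summed to 123 and 167 TPM, and the 4 type II receptors, mostly TGFBR2, to 429 and 462 TPM.

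Of the 5 secreted antagonists and follistatin relatives, 3 were expressed. NOG and FSTL3, 2 of these 3, were higher, as were 20.7% of protein-coding genes, and so small a count was not tested against that share. NOG, or noggin, which binds BMPs and keeps them from their receptors, was 11.1 and 20.7 TPM, a difference of 0.84 and 1.86-fold (1.42 to 2.43). FSTL3, a secreted relative of follistatin that binds activin, was 28.1 and 44.3 TPM, a difference of 0.64 and 1.57-fold (1.38 to 1.80). FSTL3 was 5.31 times INHBA in control (4.45 to 6.39) and 45.1 times after XPR1 siRNA (31.8 to 66.3). FSTL3 was under the 1.5-fold threshold with either other scaling of the libraries, at 0.58 with median-of-ratios and 0.55 with upper-quartile scaling, and at 0.57 with a pseudocount of 5.

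Follistatin itself, FST, had 4 reads and 1 read, and the BMP antagonist GREM1 had 4 and 2 reads. At these depths a difference of either was not detectable. FSTL1, a more distant relative of follistatin, was among the most abundant members at 258 and 279 TPM. The 4 latent TGF-beta binding proteins, which tether inactive TGF-beta to the matrix, were all within 1.5-fold. LTBP4 was 64.6 and 71.8 TPM, LTBP2 51.6 and 49.0 TPM, LTBP3 35.6 and 27.7 TPM, and LTBP1 7.29 and 7.71 TPM. Their sum was 159 and 156 TPM.

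**Figure D3:**
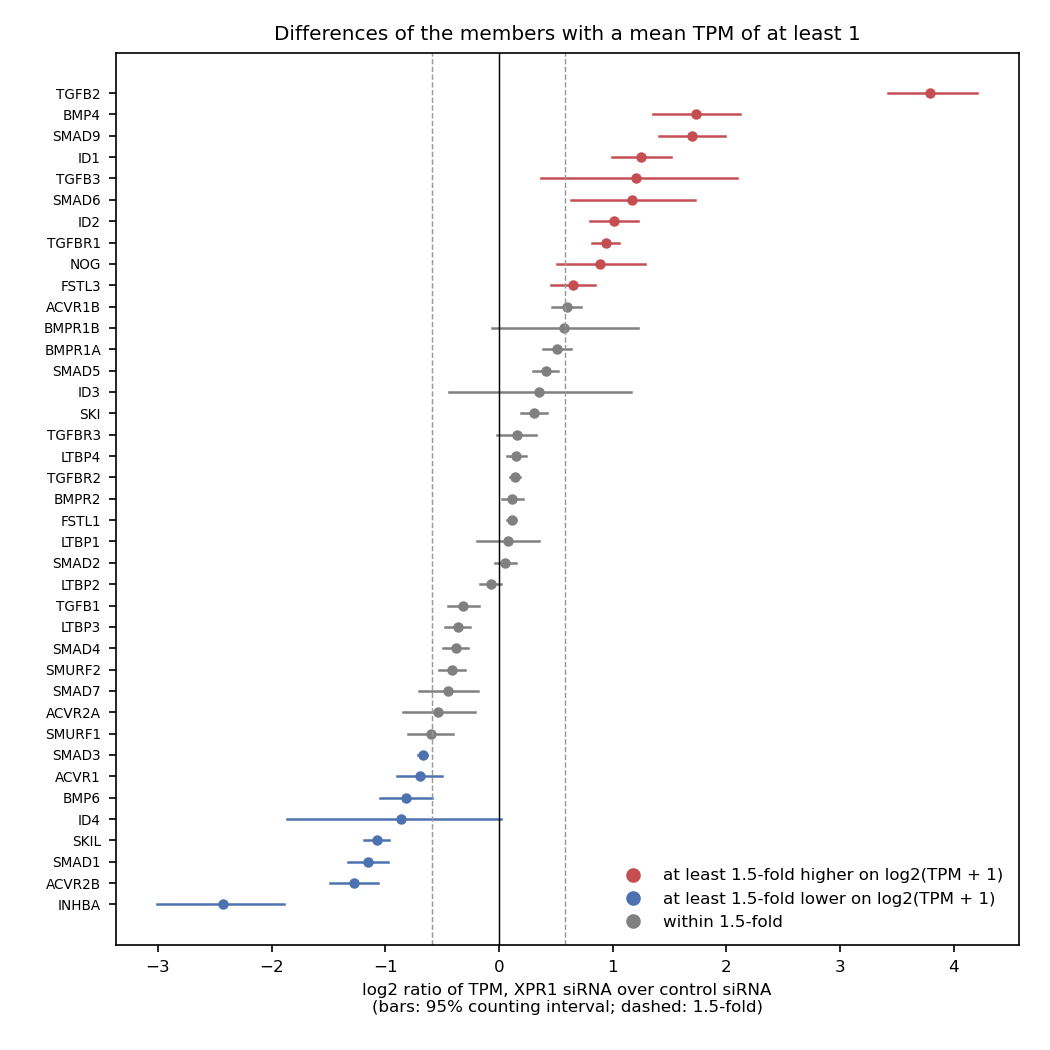
Log2 ratio of TPM (XPR1 siRNA over control) on the x axis for the 39 genes averaging 1 TPM or more, sorted, with 95% counting intervals as bars and dashed lines at 1.5-fold. Colours follow the log2(TPM + 1) scale, on which 10 genes were higher and 8 lower; ACVR1B and SMURF1 reach the dashed lines as ratios but not on that scale. The interval of ID4 alone among the coloured genes crosses 0.

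Among the SMADs of the BMP branch, SMAD1 was lower and SMAD9 higher. SMAD1 (ENSG00000170365, chromosome 4, 145481194 to 145558079, plus strand) was 35.5 and 16.0 TPM, 2.22-fold lower (1.97 to 2.51). SMAD9 (ENSG00000120693, chromosome 13, 36844831 to 36920765, minus strand) was 5.47 and 17.7 TPM, 3.24-fold higher (2.66 to 3.98). SMAD5 was 33.6 and 44.6 TPM, within 1.5-fold. SMAD1 was 6.49 times SMAD9 in control (5.40 to 7.85), and after XPR1 siRNA the ratio was 0.901, with an interval that included 1 (0.783 to 1.04).

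As parts of the BMP-type SMAD transcripts, SMAD1 held 47.6% in control and 20.4% after XPR1 siRNA, SMAD9 7.34% and 22.7%, and SMAD5 45.0% and 56.9%. The 3 summed to 74.5 and 78.3 TPM. SMAD1-AS1 and SMAD5-AS1, on the opposite strands, were below 1 TPM in both libraries.

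Of the SMADs that carry TGF-beta and activin signals, SMAD3 was by far the more abundant. SMAD3 (chromosome 15, 67063763 to 67195195, plus strand) was 332 and 209 TPM, a difference of -0.67 and 1.59-fold lower (1.55 to 1.64). SMAD2 was 11.8 and 12.2 TPM, and the sign of its difference turned with upper-quartile scaling. SMAD3 was 28.3 times SMAD2 in control (26.9 to 29.7) and 17.1 times after XPR1 siRNA (16.2 to 18.0). These ratios depend on the exonic lengths used, 9113 bases for SMAD3 and 36366 for SMAD2. In reads the pair stood at 12781 and 1804 in control and at 7722 and 1805 after XPR1 siRNA. The intervals do not cover an error of length. SMAD4, the partner of both branches, was 28.1 and 21.6 TPM, within 1.5-fold.

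The inhibitors inside the cell differed in direction. SMAD6, which acts mainly on the BMP branch, was 1.19 and 2.68 TPM, from 43 and 93 reads, a difference of 0.75 and 2.25-fold (1.55 to 3.31). With a pseudocount of 5 that difference was 0.31, within 1.5-fold. SMAD7, which blocks the receptors of both branches, was 14.0 and 10.3 TPM, within 1.5-fold. SKIL (ENSG00000136603, chromosome 3, 170357678 to 170396835, plus strand), a corepressor that binds SMADs and is itself a known TGF-beta target, was 67.4 and 32.0 TPM. That is a difference of -1.05 and 2.11-fold lower (1.96 to 2.27).

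SKI, the relative of SKIL, was 42.8 and 53.0 TPM, within 1.5-fold. The ubiquitin ligases SMURF1 and SMURF2, which mark SMADs and receptors for breakdown, were 20.7 and 13.6 TPM and 51.0 and 38.3 TPM. SMURF1 lay at -0.57, just inside the threshold, and passed it with median-of-ratios scaling (-0.62). Of its exons, 11.7% are shared with TRRAP on the other strand, at 13.3 and 16.8 TPM.

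The ID genes encode inhibitors of basic helix-loop-helix transcription factors, and ID1, ID2 and ID3 are known as early targets of BMP signalling. ID1 (ENSG00000125968, chromosome 20, 31605283 to 31606515, plus strand) was 34.8 and 82.9 TPM, a difference of 1.23 and 2.38-fold (2.00 to 2.85). ID2 (chromosome 2, 8678845 to 8684453, plus strand) was 29.8 and 60.0 TPM, a difference of 0.99 and 2.02-fold (1.74 to 2.34). ID3 was low, at 3.48 and 4.45 TPM, with an interval that included equality.

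ID4 was 3.12 and 1.72 TPM, from 31 and 16 reads. Its difference of -0.60 passed the threshold, but its fold of 1.82 lower had an interval of 0.989 to 3.65, and with a pseudocount of 5 the difference was -0.27. The 4 ID genes summed to 71.2 and 149 TPM, with ID1 and ID2 making up nearly all of it in both libraries.

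Further genes of the pathway were taken from 6 lists that hold 121 genes, of which 79 had a mean of at least 1 TPM. All 6 lists were drawn up with earlier results of these data known, so every count from them is a description and no independent evidence. Of 12 expressed regulators outside the cell, 10 were higher and 1 lower, with a median of 1.05, beside 20.7% and 11.1% of protein-coding genes and a median of 0.10. The list of these regulators holds ITGB8, which passed the level filter through the XPR1-siRNA library. THBS1, a matrix protein that can release TGF-beta from its latent form, was 18.7 and 316 TPM, 16.9-fold higher (15.7 to 18.2). ITGB8, the integrin chain that pairs with the alpha-v chain to free latent TGF-beta, was 0.313 and 11.2 TPM, from 20 and 689 reads. FBN1, the microfibril protein to which latent complexes attach, was 3.63 and 13.9 TPM.

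NRROS, which anchors latent TGF-beta at the cell surface, was the lower one, at 11.5 and 3.65 TPM. The remaining higher regulators, named after their values were seen, were the BMP binders CHRD, CHRDL1, TWSG1 and NBL1, the fibrillin FBN2, the integrin chain ITGAV and the protease BMP1. They were between 1.75-fold and 2.69-fold higher. The list's 10 higher genes were 10 with either other scaling and with either other pseudocount, 9 with a floor of mean TPM 5 and 7 by a 2-fold threshold.

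**Figure D4:**
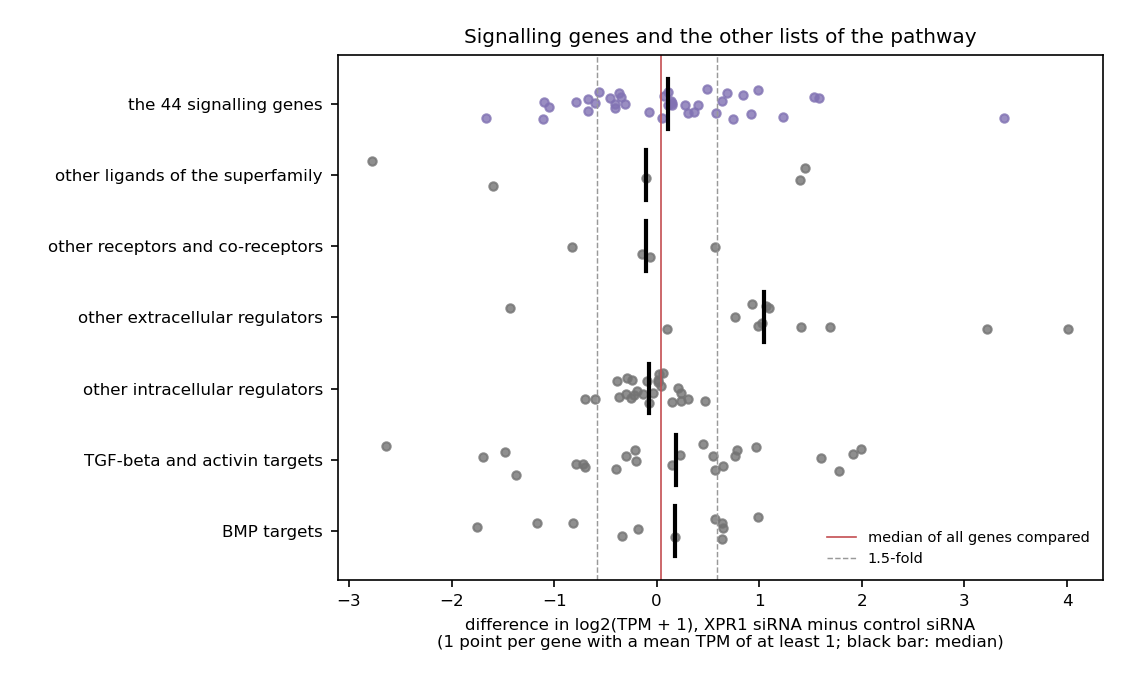
Difference in log2(TPM + 1) on the x axis (XPR1 siRNA minus control) for each gene averaging 1 TPM or more, by list, with the median as a black bar, the median of all genes in red and 1.5-fold as dashed lines. The extracellular regulators have a median of 1.05, while the intracellular regulators lie between -0.70 and 0.47.

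Of 25 expressed intracellular regulators, 23 were within 1.5-fold, none was higher and 2 were lower, with a median of -0.07, where 20.7% and 11.1% of protein-coding genes were higher and lower. The lower ones were NEDD4L, a ubiquitin ligase for activated SMADs, at 79.7 and 48.7 TPM, and the corepressor TGIF1 at 59.9 and 39.1 TPM. TGIF1 was within 1.5-fold with a pseudocount of 5, at -0.56. Of 4 expressed receptors and co-receptors beyond the members, 1 was lower, the BMP co-receptor RGMB at 16.2 and 8.71 TPM. Of 24 further ligands only 5 were expressed. BMP8B was 1.42 and 5.61 TPM and GDF11 4.27 and 12.9 TPM. INHBE, another activin-type subunit, was 11.4 and 0.809 TPM, and passed the level filter through the control library. The stress-induced ligand GDF15 was 120.7 and 39.3 TPM.

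Known targets of TGF-beta and activin held genes on both sides. Of 24 expressed, 8 were higher and 7 lower, which is 33.3% and 29.2% beside 20.7% and 11.1% of protein-coding genes, with a median of 0.19. This list too was drawn up with earlier results known, and some higher genes, LMCD1 among them, passed the level filter through the XPR1-siRNA library. With a floor of mean TPM 5, 4 were higher and 6 lower. The higher share of 33.3% thus rests in part on genes averaging under 5 TPM, COL1A1 and LMCD1 among them. Among the lower ones, the transcription factor JUNB was 158.4 and 48.5 TPM, and the cell cycle inhibitor CDKN2B 48.3 and 16.6 TPM. On the other side, the matrix protein TGFBI was 12.8 and 54.1 TPM, 4.21-fold higher (3.78 to 4.70).

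The collagen chain COL1A1 was 1.04 and 6.67 TPM, and LMCD1 0.341 and 3.6 TPM from 13 and 134 reads. COL1A1 is also 1 of 9 fibroblast markers, which summed to 2.76 and 11.4 TPM. Only COL1A1 and PDGFRB, the latter at 1.03 and 3.24 TPM, had a mean of at least 1 TPM, and they made up most of the sum. The rest averaged under 1 TPM and were not called higher or lower. COL1A2 had 3 and 0 reads, COL3A1 6 and 2, PDGFRA 5 and 0, and POSTN 1 and 0. LUM had 1 and 14 reads, THY1 4 and 8, and DCN was listed at 0 in both libraries. Among these only the counting interval of LUM excluded equality. The part of any fibroblasts in the differences of COL1A1 and of the other matrix genes THBS1, FBN1 and TGFBI was not tested.

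Among 11 expressed BMP targets beyond the members, 4 were higher and 3 lower, which is 36.4% and 27.3% beside the same 20.7% and 11.1%, with a median of 0.17. The homeobox gene MSX1 was 1.79 and 4.53 TPM, the osteoblast factor RUNX2 22.5 and 35.7 TPM, and ATOH8 1.94 and 3.58 TPM. The netrin receptor UNC5B was 167.3 and 49.0 TPM, HEY1 14.1 and 5.73 TPM, and DLX2 2.07 and 0.746 TPM. Of the 4 higher ones, only MSX1 was past 1.5-fold with upper-quartile scaling, and none with a pseudocount of 5. With a floor of mean TPM 5, only RUNX2 of them was kept. The lower count was 2 with that pseudocount or floor, without DLX2, which passed the level filter through the control library. This list was also drawn up with earlier results known.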

How the data were processed

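RNA of 2 TPC-1 libraries was sequenced, 1 per siRNA; per the labels' protocols RNeasy Plus kits were used for RNA and TruSeq v2 for the libraries, a kit that does not mark strand. The authors deposited TPM values in 1 table; each column sums to 1000000. Per the submitters' processing notes, FastQC, MultiQC, Trimmomatic 0.38, featureCounts 2.0.0 and GRCh38 were used; aligner and annotation release were not given in the sources used here.

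Symbols came from a table of gene identifiers (58472 matched), otherwise from GENCODE 29 on GRCh38, which gave coordinates and exonic lengths for 58611. TPM times length fell on multiples of a step, and dividing by it gave whole reads (tolerance 0.01) in 92.2% and 92.4% of genes at or under 10 reads, but in only 55.5% and 55.3% of protein-coding genes. Of the 44 members, 19 had whole reads in both libraries, so other intervals are approximate. Without molecular identifiers, reads are not independent molecules. A count of 0 allows up to 3 reads.

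Differences are log2(TPM + 1), with a floor of mean TPM 1 and a 1.5-fold threshold; the + 1 understates differences of low genes. The members and gene lists were chosen with earlier results of these data known. All members are described; in each further list, up to 3 highest and 3 lowest genes past 1.5-fold are named, except 1 gene that is not reported here; the other higher extracellular regulators were named after their values were seen. Alternatives were other scalings, pseudocounts, floors, a 2-fold threshold and the counting interval. Code was tested on simulated data. Promoter windows came from RefSeq. Python 3.11.15 with NumPy 2.4.6, pandas 2.3.3 and SciPy 1.17.1 was used.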

Additional observations from a re-analysis of the deposited data

How the results depend on the processing

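The counts of members past 1.5-fold were 10 higher and 8 lower. With median-of-ratios or upper-quartile scaling they were 9 and 9. Of all genes, 20.0% were higher and 18.2% lower with median-of-ratios scaling, and 18.8% and 19.2% with upper-quartile scaling. Over other pseudocounts (0.1 and 5), other floors (mean TPM of 0.1, 5 or none) and the counting interval, the members' counts were 7 to 11 higher and 6 to 9 lower. A 2-fold threshold left 4 higher and 4 lower, since it is stricter by construction. The XPR1 difference was -2.67 and became -2.10 with a pseudocount of 5. Upper-quartile scaling shifted the median of all genes by -0.07. No difference of the 18 called members changed sign under another scaling or pseudocount; LTBP1 (-0.01) and SMAD2 (-0.03), both within 1.5-fold, did so with upper-quartile scaling. Of 108 counts of the further lists under alternatives, 12 moved by over 1.5 times. Depth limits BMP2, FST, GREM1 and INHBB, with 7 reads or fewer in each library. No paired analysis was possible because neither siRNA has a second library. For the same reason, leaving out a replicate was not an option.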
